A study of Mus musculus with 6 samples.

Results

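Mitochondrial transcripts with listed N6-methyladenosine (m6A) enrichment were examined in brain tissue of Fto knockout mice. The deposited peak list has 23 rows on the mitochondrial chromosome among 29950 rows in all (0.0768%), and all 23 were used. They were assigned to genes by any overlap with fixed spans of mt-Nd2, mt-Nd4, mt-Nd5, mt-Nd6 and mt-Cytb and of a block of tRNA genes next to mt-Nd2. These 5 protein-coding genes were chosen by the positions of the listed peaks themselves, so their coverage is given as a description, without a test.

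The series holds 3 libraries of immunoprecipitated RNA and 3 input libraries from adult mice on a C57BL/6 background. All 6 carry a global Fto knockout, which removes a demethylase of m6A in every tissue, and come from midbrain and striatum taken as one neural tissue. The RNA was depleted of ribosomal RNA and passed through 2 rounds of m6A immunoprecipitation (MeRIP), in which an antibody enriches RNA fragments that carry the mark. The 6 libraries share 1 list, which has no value per library, so no result below has a replicate error. Mice with an intact Fto gene were not analysed here, and the coverage of these genes cannot be set against them. The tissue label and the Fto locus were not checked, because nuclear peaks were not assigned to genes.

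Mitochondrial DNA is transcribed from both strands into long precursors that run through many genes. The precursors are cut mainly at the tRNA genes that lie between the coding sequences, which releases the rRNAs and mRNAs. The mRNAs encode subunits of the respiratory chain, which supplies neurons with most of their ATP. MT-ND1 to MT-ND6 and MT-ND4L belong to complex I (NADH dehydrogenase), MT-CYTB to complex III, the MT-CO subunits to complex IV (cytochrome c oxidase) and the MT-ATP subunits to ATP synthase. mt-Nd6 is the only protein-coding gene transcribed from the light strand, opposite to the other coding genes. MeRIP fragments are longer than a single base, so a listed peak marks a region around a possible m6A site and not the site itself.

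Listed enrichment lay on 5 of the 13 mitochondrial protein-coding genes: 4 of the 7 complex I genes and the 1 complex III gene. It reached 0 of the 3 complex IV genes, 0 of the 2 ATP synthase genes and 0 of the 2 rRNA genes. mt-Nd5 and mt-Nd6 were covered over their whole length, mt-Cytb over 62.8%, mt-Nd4 over 36.3% and mt-Nd2 over 19.4%. Of the 4225 bp in mitochondrial peaks, 3749 bp (88.7%) lay in these 5 genes and 3030 bp (71.7%) in the complex I genes among them. As 4 of the 5 genes belong to complex I, the latter share alone shows no lean toward that complex. mt-Nd5 alone held 1824 bp. The transcript level and the methylated share of a transcript cannot be told apart in the list, nor can fewer cells of a type and less RNA per cell.

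**Figure D1:**
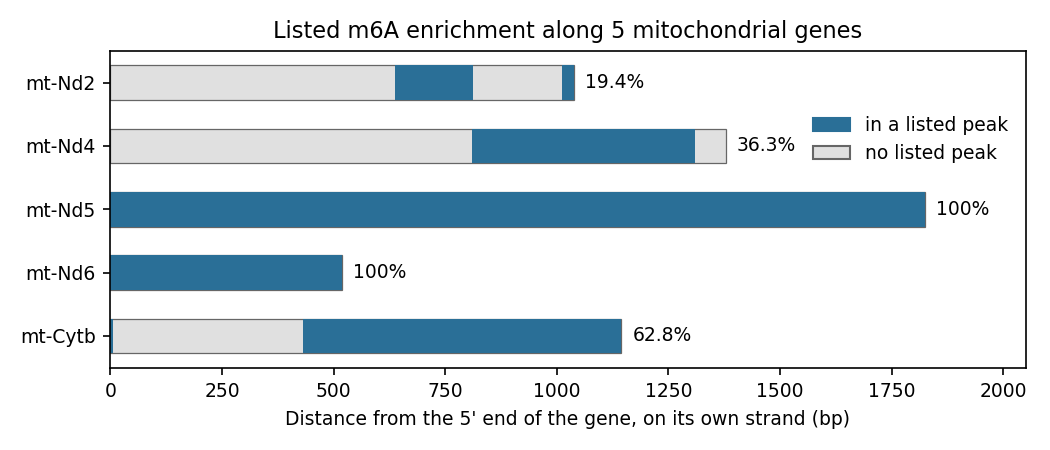
Each bar is a mitochondrial gene drawn from its 5′ end on its own strand, with the distance in bp on the x axis. Dark parts lie in a listed peak and grey parts do not, and the number beside each bar is the covered percentage. The bars of mt-Nd5 and mt-Nd6 are dark throughout, while the dark parts of mt-Nd2, mt-Nd4 and mt-Cytb lie mainly toward the 3′ end.

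The 23 rows formed 6 separate stretches once rows that touch end to end were merged. The list divides any stretch over 200 bp into near-equal parts, so the number of rows in a gene follows the covered length and does not count m6A sites. All 12 edges of the 6 stretches fell on a grid of 25 bp, which limits how exactly an edge can be placed against a gene boundary. Peak positions are given in mm9, 1-based. The covered shares and codon positions hold only if the gene spans apply to the mitochondrial sequence of mm9, which was not checked.

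mt-Nd5 encodes a large core subunit of the proton-pumping membrane arm of complex I. Its span, chrM:11742-13565, measures 1824 bp, and every base of it lay in a single stretch at chrM:11701-14150. This stretch was 2450 bp long and was listed as 13 rows of 182 to 189 bp, of which 10 overlapped mt-Nd5. It began 41 bp before mt-Nd5, more than 1 grid step, and continued 585 bp past its end. The list thus shows no gap in enrichment anywhere in mt-Nd5, and without peak heights it cannot show where in the gene the enrichment was strongest.

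mt-Nd6 encodes another membrane subunit of complex I and lies at chrM:13552-14070 on the opposite strand. All of its 519 bp lay in the same stretch as mt-Nd5, in 4 rows. The spans of mt-Nd5 and mt-Nd6 share 14 bp, where the 3′ ends of both genes overlap, and together they form 2329 bp without an uncovered base. The list has no strand. Enrichment over mt-Nd6 may therefore come from the mt-Nd6 transcript or from RNA of the other strand that runs through the same DNA, and these cannot be told apart.

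The same stretch went on past mt-Nd6. It covered all 74 bp between mt-Nd6 and mt-Cytb, where the RefSeq gene order places 1 tRNA gene (TrnE, for glutamate), and then the first 6 bp of mt-Cytb. Those 6 bp are less than 1 grid step, so the list does not resolve whether the stretch enters mt-Cytb at all. On the other side, it held 41 of the 197 bp between mt-Nd4 and mt-Nd5, where the RefSeq order has 3 tRNA genes (TrnH, TrnS2 and TrnL2).

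mt-Cytb encodes cytochrome b, a catalytic core subunit of complex III and the only subunit of that complex made in the mitochondrion. Its span at chrM:14145-15288 measures 1144 bp, of which 719 bp were covered. Of these, 713 bp belonged to a stretch at chrM:14576-15375, which was 800 bp long and listed as 4 rows of 200 bp. Between the 2 stretches lay 425 bp of mt-Cytb without a listed peak. Codons are counted here and below from the first base of the span, and include those covered only in part. On this count, the main stretch covered codons 144 to 382, the end of the gene, where the last codon is incomplete in the span. It ran 87 bp past the gene, into the part where the RefSeq order has 2 tRNA genes (TrnT and TrnP).

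mt-Nd4 encodes a further membrane subunit of complex I and has its span at chrM:10167-11544. One stretch of 500 bp, at chrM:10976-11475, lay wholly inside it and was listed as 3 rows of 166 to 167 bp. The first 809 bp of mt-Nd4 and the last 69 bp had no listed peak, so codons 270 to 437 were covered. Unlike those of mt-Nd5 and mt-Cytb, the stretch of mt-Nd4 did not reach a gene boundary. It was separated from the stretch over mt-Nd5 by 225 bp.

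mt-Nd2 also encodes a membrane subunit of complex I and was the least covered of the 5 genes. Its span at chrM:3914-4951 measures 1038 bp, of which 201 bp lay in listed peaks. A stretch of 175 bp at chrM:4551-4725 covered codons 213 to 271, after 637 bp without a peak. A further 200 bp without a peak followed. The remaining 26 bp, at the very end of the gene, belonged to a second stretch of 175 bp at chrM:4926-5100, of which 149 bp lay past mt-Nd2. The overlap of this second stretch with mt-Nd2 is about 1 grid step.

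The block of tRNA genes that follows mt-Nd2 was covered over 261 of its 311 bp (83.9%), at chrM:4950-5260. The second mt-Nd2 stretch supplied 151 bp and a stretch of 125 bp at chrM:5151-5275 supplied 110 bp, with 50 bp between them. In the RefSeq order, 5 tRNA genes lie between mt-Nd2 and mt-Co1 (TrnW, TrnA, TrnN, TrnC and TrnY). The last 15 bp of the stretch at chrM:5151-5275 lay past the block. Whether the block spans all 5 of these tRNA genes was not checked, so 83.9% is the share of the block only. Enrichment over the block may come from the tRNAs or from precursor RNA of either strand, and the list cannot tell these apart. Peaks were also not assigned to single tRNA genes, because single tRNA spans of the list's build were not used here. Both tRNA stretches were single rows and shorter than the median nuclear stretch of 200 bp.

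The 3 genes that were covered in part had more of their coverage toward the 3′ end. In mt-Nd2, the first 50% of the gene had 0% of its bases in a peak and the last 50% had 38.7%. mt-Nd4 had 0% in its first 50% and 72.6% in its last. mt-Cytb had 25.7% in its first 50%, including the 6 bp that the grid does not resolve, and 100% in its last. Divided into 10 equal parts, mt-Nd4 was covered fully in parts 7 to 9 and to 49.6% in part 10. mt-Cytb was covered fully in parts 5 to 10. In mt-Nd2 parts 7 and 8 were covered to 87.5% and 80.8%, part 9 had 0% and part 10 had 25.2%. The coverage of part 10 was the last 26 bp of mt-Nd2, about 1 grid step. All other covered bases of mt-Nd2 came from 1 row of 175 bp. With 3 genes and no strand in the list, this lean is a description of these genes only. The uncovered start of mt-Nd4 belongs to a run of 5700 bp without a peak, described below, part of which has a nuclear copy. The part of that copy in the lean of mt-Nd4 was not tested.

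**Figure D2:**
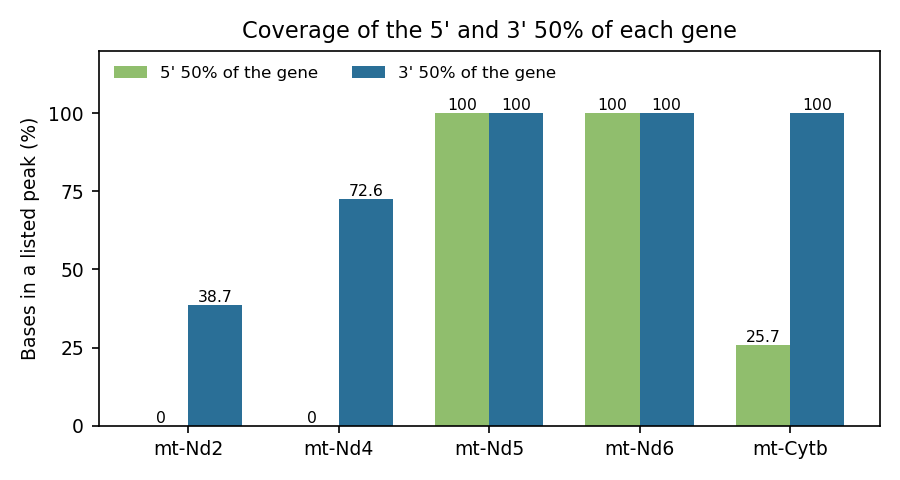
Bars show the percentage of bases in a listed peak in the 5′ and in the 3′ 50% of each gene, on the gene's own strand. There is 1 list for all libraries, so the bars have no error. mt-Nd2 and mt-Nd4 have 0% in their 5′ part against 38.7% and 72.6% in their 3′ part, mt-Cytb has 25.7% against 100%, and mt-Nd5 and mt-Nd6 have 100% in both.

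The other mitochondrial protein-coding genes and the rRNA genes had no listed peak. mt-Rnr1 and mt-Rnr2, the rRNA genes, and mt-Nd1 precede mt-Nd2 in the RefSeq order, and the first listed base was at position 4551, inside mt-Nd2. The rRNAs were depleted before the immunoprecipitation, and the part of this step in their absence from the list was not tested. A run of 5700 bp without a peak, at chrM:5276-10975, lay between the tRNA block and the stretch of mt-Nd4 and included the first 809 bp of mt-Nd4. In the RefSeq order 7 protein-coding genes lie from mt-Co1 to mt-Nd4l: mt-Co1, mt-Co2 and mt-Co3 of complex IV, mt-Atp8 and mt-Atp6 of ATP synthase, and mt-Nd3 and mt-Nd4l of complex I. Absence from the list is not a measured absence of m6A, because depth, transcript level and the calling threshold are unknown.

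Part of this run also has a copy in the nucleus. The RefSeq table lists Gm10925, with mt-Atp6 among its synonyms, as a pseudogene on chromosome 1. No label or file states how reads that match both a mitochondrial gene and a nuclear copy were treated. How far the chromosome 1 copy extends along the run, which ends inside mt-Nd4, was not checked. The absence of mt-Atp6 from the list is therefore uncertain, and that of its neighbours in the run may be too. The part of such copies in these absences was not tested. Nuclear copies of the other protein-coding genes, covered or not, were looked for by synonym only. The same doubt may therefore hold for them.

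Coverage was concentrated from mt-Nd4 onward. The segment at chrM:10976-15375, from the stretch of mt-Nd4 to that of mt-Cytb, measures 4400 bp and had 3750 bp (85.2%) in listed peaks. Both ends of this segment were set by peak edges, which raises its share. Counted from the first base of mt-Nd4 to the last peak, 3750 of 5209 bp (72.0%) were covered. From the first to the last mitochondrial peak, 4225 of 10825 bp (39.0%) were covered. The uncovered 650 bp of the segment were the gap of 225 bp between mt-Nd4 and mt-Nd5 and the gap of 425 bp inside mt-Cytb.

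Measured along the genome, the stretches over mt-Nd5 with mt-Nd6, over mt-Cytb and over mt-Nd4 were long beside those on the other chromosomes. Those at mt-Nd2 and the tRNA genes were not. This measure is unlike for the 2 groups, because an intron can break a nuclear stretch and mitochondrial genes have no introns. The part of introns in the ranks below was not tested. None of the 19398 nuclear stretches was as long as the 2450 bp over mt-Nd5 and mt-Nd6, the longest being 2075 bp, on chr7:51716376-51718450. For the 800 bp of mt-Cytb, 201 nuclear stretches (1.04%) were at least as long, and for the 500 bp of mt-Nd4 there were 1129 (5.82%). For the 175 bp of each mt-Nd2 stretch there were 12231 (63.1%), and for the 125 bp of the tRNA stretch 17154 (88.4%). The mitochondrial stretches thus fall on both sides of the nuclear median of 200 bp. Their order of length was chosen for description after the list was known and has no test. The rank of the mt-Nd5 stretch also depends on joining only rows that touch: with gaps of up to 100 bp joined, 2 nuclear regions were at least as long, up to 4875 bp, and with gaps of up to 200 bp joined there were 9. With gaps of up to 500 bp joined, the mitochondrial region from mt-Nd4 to mt-Cytb measured 4400 bp, and 6 nuclear regions were at least as long, up to 8075 bp.

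**Figure D3:**
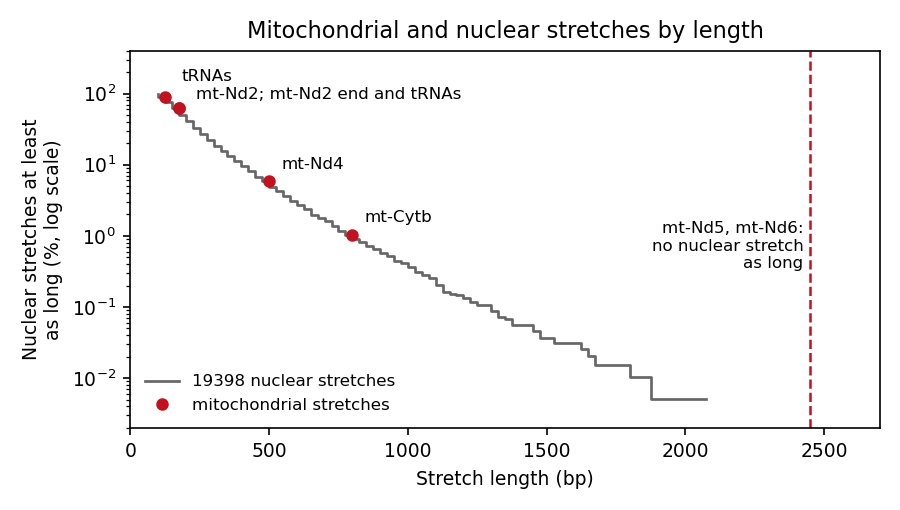
The line gives, for each stretch length in bp on the x axis, the percentage of the 19398 nuclear stretches that were at least as long, on a log scale. Points are mitochondrial stretches placed on this line, and the dashed line marks the 2450 bp stretch over mt-Nd5 and mt-Nd6, which no nuclear stretch matched. The stretches at mt-Nd2 and the tRNA genes sit at the short end, and those of mt-Nd4 and mt-Cytb at 5.82% and 1.04%.

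Few nuclear regions were covered as densely as the segment from mt-Nd4 to mt-Cytb. Windows of 4400 bp were begun at each of the 19398 nuclear stretches, and their median covered length was 300 bp. This window length was taken from the mitochondrial peaks, so the mitochondrial window ends exactly on a peak edge. The nuclear windows were not fitted in this way, and the rank is a description. Of these, 9 windows were covered over at least the 3750 bp of the mitochondrial segment. They overlapped into 2 separate loci, 1 on chromosome 2 and 1 on chromosome 10. The highest, beginning at position 121128201 of chromosome 2, had 4200 bp (95.5%) in listed peaks. The genes at these nuclear positions were not assigned. Nuclear windows can include introns, which mitochondrial genes lack, and the part of introns in the lower nuclear coverage was not tested.

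**Figure D4:**
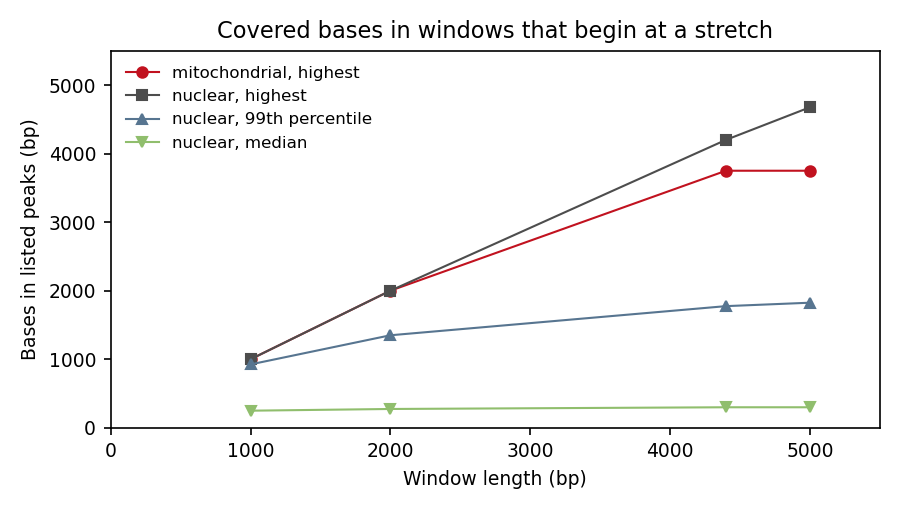
Points give the bases in listed peaks, in bp, within windows that begin at a stretch, against the window length in bp. The mitochondrial value is the highest on that chromosome, and the nuclear values are the highest, the 99th percentile and the median over 19398 windows. The mitochondrial points lie above the nuclear 99th percentile at each of the 4 lengths, and at 4400 bp the mitochondrial 3750 bp lies below the nuclear highest of 4200 bp.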

How the data were processed

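Per the labels, MeRIP and input libraries were made from rRNA-depleted RNA, and the submitters' processing notes name the mm9 build, SAMtools 0.1.18 and BWA 0.6.2-r126. No label or file header names the peak caller or its threshold, or says how replicates and inputs were combined. The authors' deposited list has 3 columns (chromosome, start, end) and no score, strand or read value, so the depth is unknown and no detection limit can be given.

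Starts were read as 0-based BED positions and are printed 1-based. Touching rows were merged, and covered bases were counted within fixed gene spans (minimum overlap 1 bp). Gene order and tRNA names came from a RefSeq table of GRCm38.p6, in which the spans of all 5 genes were the same as those used. Whether mm9 has the same mitochondrial sequence was not checked. Its other coordinates were not used. No mitochondrial nucleotide or protein sequence was used here. All 5 genes and the tRNA block were named, and nuclear stretches were given by rank. The genes and lists were chosen with earlier results of these data known. Merging and counting were tested on simulated peaks. Python 3.11.15, numpy 2.4.6, scipy 1.17.1 and matplotlib 3.10.9 were used. Alternatives changed the stretch edges, the joining of peaks, the overlap rule and the window length.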

Additional observations from a re-analysis of the deposited data

How the results depend on the processing

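None of the alternatives could have lowered the covered share of mt-Nd5 and mt-Nd6, so their 100% in every setting is no check. Their shared stretch began 41 bp before mt-Nd5 and ended 80 bp past mt-Nd6, more than the 25 bp removed at each end. No error can be given for a share, since neighbouring bases are covered together, so the larger moves are given as values. Shortening every stretch by 25 bp at both ends gave 12.1% for mt-Nd2, 32.7% for mt-Nd4 and 64.3% for the tRNA block. Lengthening by 25 bp gave 26.6% for mt-Nd2, 39.9% for mt-Nd4, 67.2% for mt-Cytb and 100% for the tRNA block. Filling gaps of up to 200 bp gave 38.6% for mt-Nd2, which exceeds the 36.3% of mt-Nd4 in that setting, and filling 100 bp or 200 bp gave 100% for the tRNA block. With only stretches longer than 200 bp, mt-Nd2 and the tRNA block had 0.0%. By peak midpoint, or with at least 50% of a peak inside the gene, mt-Nd2 had 1 listed peak in place of 2, and the other genes kept their counts within 1.5 times. Joining peaks within 500 bp left 2 mitochondrial stretches in place of 6. The nuclear windows covered at least as far as the mitochondrial one numbered 80 at 1000 bp, 1 at 2000 bp and 23 at 10000 bp, against 9 at 4400 bp. The 10000 bp count is not comparable, because the mitochondrial chromosome ends inside that window. No paired analysis was possible because all 6 libraries share 1 list, which likewise left no replicate to omit. Unknown depth, strand and threshold limit what an uncovered gene means.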
